A study of Mus musculus with 19 samples.

Results

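Translation initiation and elongation factors are the proteins that load ribosomes on mRNA, find the start codon and move the ribosome along the coding sequence. Their mRNAs were read in epididymal white adipose tissue (eWAT) of mice fed 4 diets. Members were the protein-coding genes whose symbol starts with Eif1 to Eif6 or with Eef1 or Eef2, and the eIF2α kinases (Eif2ak genes) were left out because they regulate translation from outside the factors. Of 67 symbols that match, 4 are such kinases and 2 are not protein coding, which left 61 members among the 24237 genes of the expression table. All mice were male C57Bl6/J, 9 to 10 weeks old when allocated, and were fed for 17 weeks. The groups were NormMg-LFD (n = 4, replicates 2 to 5), LowMg-LFD (n = 5), NormMg-HFD (n = 5) and LowMg-HFD (n = 5). MgO made up 0.21% (wt/wt) of the NormMg diets and 0.03% of the LowMg diets, while fat (palm oil) gave 10% of the energy in the low-fat diet (LFD) and 60% in the high-fat diet (HFD). Total RNA of the tissue, without sorting of cells, was sequenced with 1 library per mouse. A level here is in FPKM, reads per transcript length and library size, so that levels can be compared between genes per length.

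In cap-dependent initiation the eIF4 factors hold the 5′ cap of the mRNA and unwind it, with eIF4E as the cap-binding protein, eIF4G as the scaffold and eIF4A as the helicase. The 4E-binding proteins compete with eIF4G for eIF4E. The small ribosomal subunit arrives with eIF1, eIF1A, eIF3, eIF5 and the initiator tRNA carried by eIF2, which eIF2B recharges with GTP. After start codon recognition eIF5B joins the large subunit, which eIF6 otherwise keeps apart. In elongation eEF1A delivers each aminoacyl-tRNA, the eEF1B subunits recharge eEF1A with GTP, eEF2 translocates the ribosome and eIF5A relieves stalled ribosomes. Nutrient and insulin signalling through mTORC1 acts on several of these proteins by phosphorylation, which mRNA levels do not show.

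Each mouse had 12986441 to 13027028 reads, of which 86.12% to 90.41% mapped. The tissue label held against 12 adipocyte markers, all of which were detected in every group with a summed level of 16021 to 26619 FPKM. Some libraries held mRNA of other tissue. The 18 exocrine pancreas genes summed to 1976 FPKM in NormMg-LFD replicate 3 and to at most 62.3 FPKM in the other mice. The 4 sperm genes Prm1, Prm2, Tnp1 and Tnp2 summed to 2816 FPKM in LowMg-HFD replicate 4 and to at most 636 FPKM elsewhere. They summed to 636, 260 and 42.1 FPKM in NormMg-LFD replicates 5, 4 and 2 and to 150 FPKM in LowMg-LFD replicate 1. In NormMg-HFD mice they reached at most 15.9 FPKM. A set of 8 epididymis genes summed to 128 FPKM in LowMg-LFD replicate 4. For whole contrasts, counts of members past the threshold are given below also without the most affected libraries. Counts by role are from all libraries unless stated. The summed level of 15 macrophage markers was 810 to 933 FPKM in NormMg-LFD, 624 to 1235 in LowMg-LFD, 2605 to 4195 in NormMg-HFD and 926 to 2345 in LowMg-HFD mice, with no marker at 0 in any group. In RNA of unsorted tissue a lower level can mean fewer cells of a type or less RNA per cell, and these cannot be told apart.

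Eef1a1, the tRNA-delivering elongation factor, stood at 1953 ± 208 FPKM (SD, n = 19 mice) and made up 30.9% to 36.1% of the summed FPKM of the 61 members in a mouse. Next came Eef2, the translocase, at 439 FPKM, then the scaffold Eif4g2 at 279, Eif5a at 261, the eEF1B subunit Eef1b2 at 235 and the start codon factor Eif1 at 232 FPKM. Among the other roles the leading members were Eif4ebp1 at 166, the eIF3 subunit Eif3k at 85.2, the eIF2 subunit Eif2s3x at 31.2, the eIF2B subunit Eif2b2 at 24.4 and the methyltransferase Eef1akmt1 at 13.8 FPKM. The Y-linked copy of the eIF2γ gene, Eif2s3y, was close to its X-linked partner at 27.8 FPKM. Together the members took 0.939% to 1.27% of all FPKM in a mouse.

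**Figure D1:**
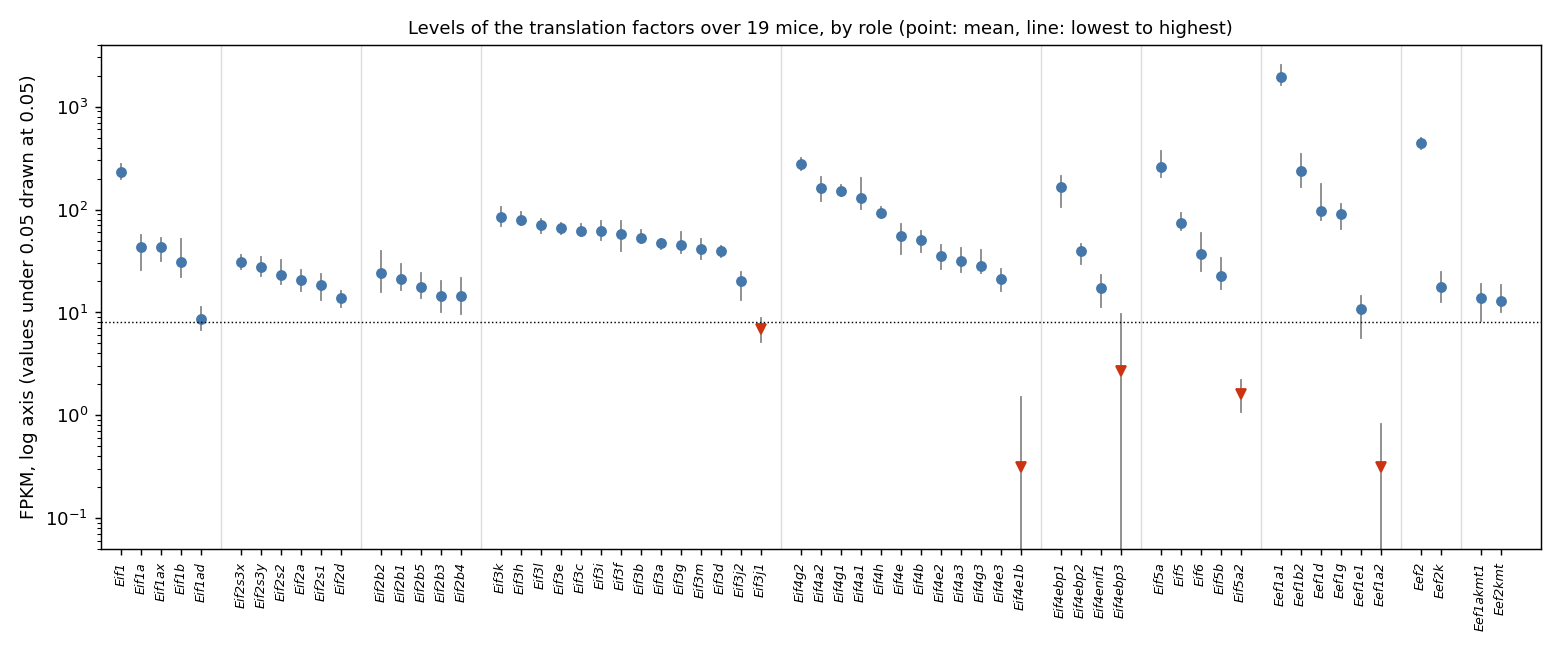
Level of each of the 61 translation factors over 19 mice on a log axis in FPKM, ordered by role, with the mean as a point and the lowest to highest mouse as a line. Eef1a1 at 1953 FPKM stands highest, and the 5 members drawn as red triangles did not pass the low-value filter, whose limit of 8 FPKM is the dotted line.

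A gene was tested when its mean was over 8 FPKM in a group and at least 4 mice of that group were over 8 FPKM, which kept 8336 genes and 56 of the 61 members. Under that limit were Eif3j1 (5.13 to 8.86 FPKM), a copy of the loosely bound eIF3 subunit j, Eif4ebp3 (0 to 9.64), a further eIF4E-binding protein, Eif5a2 (1.08 to 2.23), the second eIF5A, Eif4e1b (0 to 1.52), an eIF4E relative known from oocytes, and Eef1a2 (0 to 0.83), the eEF1A form of muscle and neurons. Thus Eef1a1 and Eif5a stood far above their paralogs Eef1a2 and Eif5a2 in this tissue. The spread between mice of a group had a median SD of 0.159 on the log2 scale for the members, against 0.216 over all genes tested. The genes were not matched for expression level, so this difference was not shown to be a trait of the members.

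The comparisons were read from 1 limma fit of log2(FPKM + 1) over the 4 groups, with p values adjusted over the 8336 genes and a threshold of 0.05. All fold changes are on that scale. For fat at normal Mg2+ (NormMg-HFD against NormMg-LFD) 15 of 56 members passed, 26.8%, against a background of 37.4% of all genes. Of these, 11 members were higher (19.6%, background 24.6%) and 4 lower (7.14%, background 12.8%). Without the NormMg-LFD mouse that held pancreas mRNA, 12 passed, where 31.4% of all genes did. Without NormMg-LFD replicate 5, which had the most sperm mRNA of that group, 10 passed, with 8 higher and 2 lower. For low Mg2+ on the HFD (LowMg-HFD against NormMg-HFD) 6 of 56 passed, 10.7% against 18.5% of all genes, with 1 higher (background 5.58%) and 5 lower (8.93%, background 12.9%). Without LowMg-HFD replicate 4, 4 passed against a background of 16.7%, with 2 in each direction. The count was 2 without LowMg-HFD replicate 5 and 3 without LowMg-HFD replicate 3 or NormMg-HFD replicate 1, 3 or 4. The shares of members that passed were thus below the background in both comparisons. Both comparisons use the NormMg-HFD mice, so that their values are not independent of each other.

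The balance of higher and lower members at normal Mg2+ depended on the scaling between mice. Centring each mouse on its median gave 8 higher and 6 lower, and quantile normalization 5 higher and 6 lower, where unscaled values gave 11 and 4. The balance over all genes moved likewise, from 65.8% of the calls higher to 50.1% and 46.9%, with 37.8% and 38.3% of all genes called under these scalings. These scalings took the median log2 fold change of all genes from 0.07 to -0.03 and -0.04, and that of the members from 0.09 to -0.02 and -0.04. For low Mg2+ on the HFD the median over the members was -0.09, where that of all genes was -0.04, and the scalings moved the members' median to -0.03 and -0.02. The calls there changed from 1 higher and 5 lower to 1 and 2 with median centring and to 3 and 3 with quantile normalization, which called 18% and 20% of all genes. Of the calls over all genes 30.2% were higher without scaling, 43.3% with median centring and 47.2% with quantile normalization. None of the 15 members past the threshold reversed its direction under either scaling in a contrast where it passed.

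**Figure D2:**
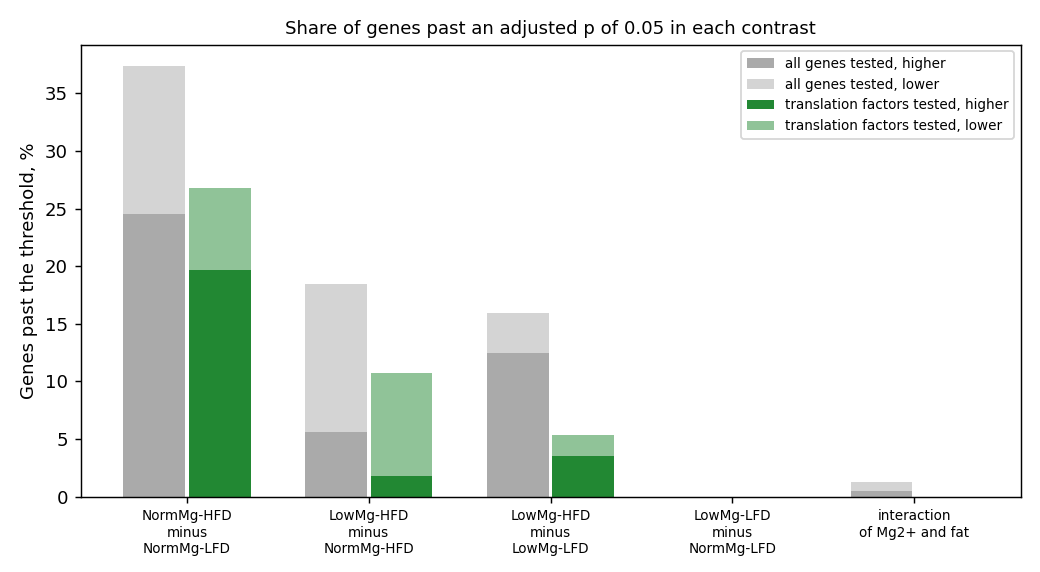
Percent of genes past an adjusted p of 0.05 in each of the 5 contrasts of the limma fit, for all 8336 genes tested (grey) and for the 56 translation factors tested (green), split into higher (dark) and lower (light). The green bars stand below the grey ones in each contrast where genes were called, for example at 26.8% against 37.4% for fat at normal Mg2+.

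The helicase subunit of eIF4F showed the clearest pattern, since its paralogs Eif4a1 and Eif4a2 moved in opposite directions. Eif4a1 lies on the minus strand of chr11:69666936-69672423 and Eif4a2 on the plus strand of chr16:23107444-23114136 (GRCm38, GENCODE M21). The bases just upstream of both RefSeq starts (GRCm38.p6) are shown because the members moved apart, together with those of Eef1b2, which moved with Eif4a1. Each run is the 200 bases before the start, 5′ to 3′ on the strand of the gene, at chr11:69672424-69672623 for Eif4a1, chr16:23107268-23107467 for Eif4a2 and chr1:63176631-63176830 for Eef1b2. Capitals mark matches to the motifs given next.
Eif4a1: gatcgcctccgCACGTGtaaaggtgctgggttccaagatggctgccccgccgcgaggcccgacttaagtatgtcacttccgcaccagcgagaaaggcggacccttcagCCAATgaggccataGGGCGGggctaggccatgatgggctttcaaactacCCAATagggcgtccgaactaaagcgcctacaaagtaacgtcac
Eif4a2: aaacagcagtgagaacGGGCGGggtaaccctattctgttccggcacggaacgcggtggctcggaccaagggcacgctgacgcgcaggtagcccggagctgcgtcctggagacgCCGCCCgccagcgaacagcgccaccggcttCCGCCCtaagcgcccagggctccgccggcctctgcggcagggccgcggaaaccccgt
Eef1b2: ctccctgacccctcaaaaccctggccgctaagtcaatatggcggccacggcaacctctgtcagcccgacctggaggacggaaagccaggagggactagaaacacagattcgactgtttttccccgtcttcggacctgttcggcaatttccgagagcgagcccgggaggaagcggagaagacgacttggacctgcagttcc
The letters searched on both strands in the 250 bases before the start were the E-box CACGTG, the cAMP response element TGACGTCA, the ETS site CCGGAAGT, the GC box GGGCGG, the CCAAT box CCAAT and the TATA box TATAAA, none of which contains another. The Eif4a1 run holds an E-box at -189, CCAAT boxes at -92 and -43 and a GC box at -78, counted from the start. The Eif4a2 run holds GC boxes at -184, -87 and -57 and no E-box, and the Eef1b2 run holds none of the 6. Of the 46 members with a start in that table, 11 had an E-box (23.9%, against 6.86% of 27025 genes), 35 a GC box (76.1% against 35.4%) and 5 an ETS site (10.9% against 3.23%). CCAAT boxes were found in 13 (28.3% against 37.5%), TATA boxes in 5 (10.9% against 14.3%) and the cAMP response element in 0 (against 1.77%). The 27025 genes were not filtered for expression in this tissue, so the shares are not matched for level. These are matches of letters and were not tested as binding sites. Among the 43 tested members with a start, the 10 with an E-box included 2 that were higher in NormMg-HFD mice, Eif4a1 and Eif5a, while 6 of the 33 without an E-box were higher and 1 was lower, where 24.6% of all genes were higher and 12.8% lower.

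Eif4a1 stood at 102, 109, 127 and 105 FPKM in the 4 NormMg-LFD mice and at 105, 102, 121, 109 and 110 FPKM in the LowMg-LFD mice. On the HFD it stood at 150, 152, 204, 197 and 148 FPKM with normal Mg2+ and at 138, 149, 115, 107 and 122 FPKM with low Mg2+. Every NormMg-HFD mouse was above every mouse on the LFD, whereas 1 LowMg-HFD mouse reached the range of the NormMg-HFD group. Fat raised Eif4a1 at normal Mg2+ 1.52-fold (log2 fold change 0.60 ± 0.12, SE, adjusted p = 0.000416). Low Mg2+ on the HFD lowered it to 0.746 of the NormMg-HFD level (-0.42 ± 0.11, adjusted p = 0.0114). Both calls held in all 28 alternative settings, including each mouse left out.

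Eif4a2 ran the other way. Its levels were 182, 194, 179 and 184 FPKM in NormMg-LFD mice and 154, 191, 170, 207 and 183 FPKM in LowMg-LFD mice. They were 123, 128, 123, 122 and 128 FPKM in NormMg-HFD mice, the group with the smallest SD, and 164, 145, 174, 129 and 176 FPKM in LowMg-HFD mice. The NormMg-HFD group overlapped none of the other 3, although LowMg-HFD replicate 4 at 128.6 FPKM lay just above its highest mouse at 128.4 FPKM. Fat lowered Eif4a2 at normal Mg2+ to 0.677 of its LFD level (-0.56 ± 0.09, adjusted p = 0.000113, held in 28 of 28 alternatives). Low Mg2+ on the HFD raised it 1.25-fold (0.32 ± 0.09, adjusted p = 0.0158). That call held in 26 of 28 alternatives and missed the threshold without LowMg-HFD replicate 3 or replicate 5, with adjusted p of at most 0.0509.

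The sum of both helicases was similar in the 4 groups, at 296 ± 10.4 FPKM in NormMg-LFD (SD, n = 4), 290 ± 20.3 in LowMg-LFD, 295 ± 25.9 in NormMg-HFD and 284 ± 27.3 in LowMg-HFD mice (n = 5 each). The ratio of Eif4a1 to Eif4a2 was 0.601 ± 0.0727 in NormMg-LFD, 0.612 ± 0.0849 in LowMg-LFD, 1.37 ± 0.247 in NormMg-HFD and 0.812 ± 0.147 in LowMg-HFD mice. The lowest NormMg-HFD mouse, at 1.15, was above the highest LowMg-HFD mouse, at 1.03, and above every LFD mouse, of which the highest was at 0.716. The ratio and the sum are descriptions and were not tested. The third paralog, Eif4a3, a core protein of the exon junction complex, stood at 36.2 ± 4.75 FPKM in NormMg-HFD and 28.6 ± 2.39 FPKM in LowMg-HFD mice and did not pass (-0.32 ± 0.12, adjusted p = 0.069). Of the exonic bases of Eif4a2, 13.3% also belong to other annotated genes, among them Rfc4 and small nucleolar RNA genes, and of those of Eif4a1 6.6%, so that part of their reads may be split.

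**Figure D3:**
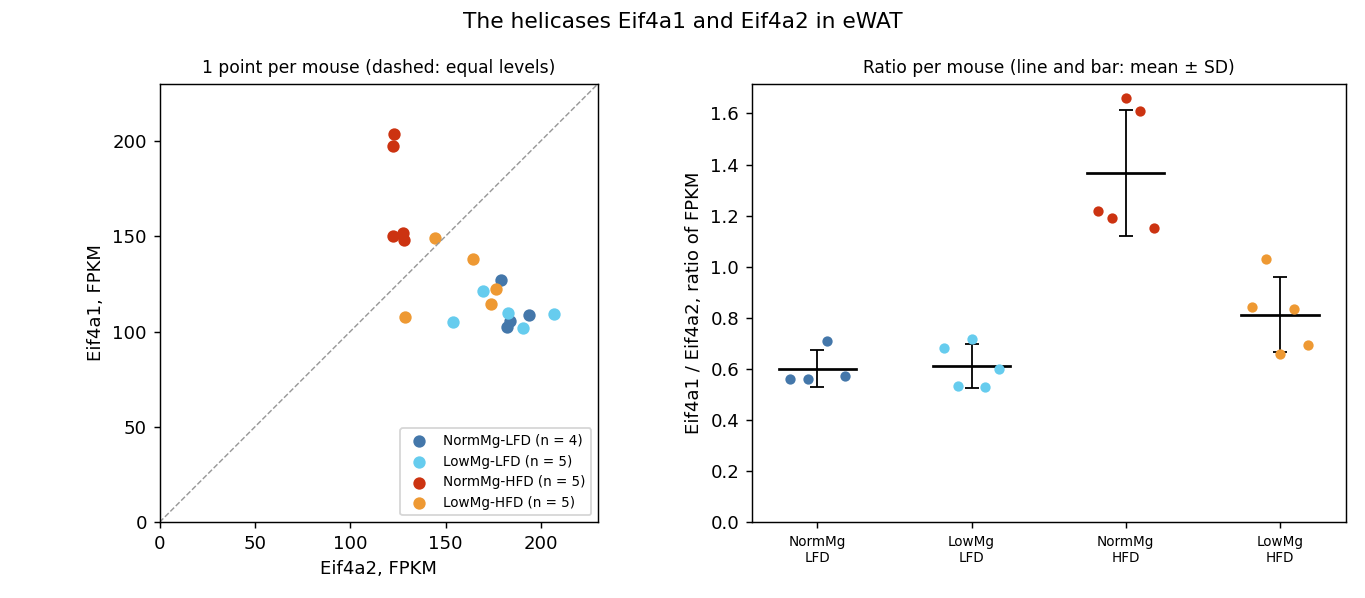
FPKM of Eif4a1 against Eif4a2 with 1 point per mouse (left, dashed line at equal levels) and the ratio of both per mouse by diet group (right, line and bar are mean ± SD). The 5 NormMg-HFD mice lie above the line of equal levels with ratios from 1.15 to 1.66, and the LowMg-HFD mice have ratios from 0.66 to 1.03.

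The eEF1 group, taken as Eef1a1, Eef1b2, Eef1d, Eef1g and Eef1e1, had 4 of 5 tested members higher with fat at normal Mg2+ (24.6% of all genes were higher), and 2 of 5 lower with low Mg2+ on the HFD (12.9% of all genes). Both counts moved with single libraries and with the scaling. Eef1a1 left the count for fat without NormMg-LFD replicate 3, which held pancreas mRNA (adjusted p = 0.0855). It left the count for low Mg2+ on the HFD without LowMg-HFD replicate 4, which held sperm mRNA (adjusted p = 0.0854). With fat, 2 of 5 were higher under median centring (Eef1b2 and Eef1e1) and 2 of 5 under quantile normalization (Eef1a1 and Eef1e1), and with low Mg2+ on the HFD 1 was lower under median centring (Eef1b2), while quantile normalization kept 2 (Eef1a1 and Eef1b2). Eef1b2, a GTP exchange subunit of eEF1B (chr1:63176825-63180486), stood at 212, 211, 241 and 223 FPKM in NormMg-LFD, at 166, 193, 191, 228 and 220 in LowMg-LFD, at 299, 259, 347, 277 and 280 in NormMg-HFD and at 252, 226, 219, 197 and 217 FPKM in LowMg-HFD mice. The NormMg-HFD mice were above all other mice. Fat raised it 1.31-fold (0.39 ± 0.10, adjusted p = 0.00508), a call lost only under quantile normalization (0.17, adjusted p = 0.122). Low Mg2+ on the HFD lowered it to 0.762 (-0.39 ± 0.10, adjusted p = 0.00861), and this call held in 28 of 28 alternatives.

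Eef1a1 (chr9:78478449-78489151) stood at 1852, 1868, 1882 and 1946 FPKM in NormMg-LFD and at 1630, 1842, 1703, 2048 and 1829 FPKM in LowMg-LFD mice. NormMg-HFD mice had 2159, 1988, 2512, 2222 and 2216 FPKM and LowMg-HFD mice 2013, 1876, 1883, 1816 and 1817 FPKM. The HFD groups overlapped through 1 mouse each, at 1988 and 2013 FPKM. Differences were small and near the threshold, at 0.23 ± 0.09 for fat (adjusted p = 0.0405) and -0.24 ± 0.08 for low Mg2+ on the HFD (adjusted p = 0.0479). They held in 15 and in 8 of 28 alternatives, and without LowMg-HFD replicate 4 the latter was -0.22 (adjusted p = 0.0854). Eef1a1 has many processed pseudogenes, and its level is uncertain to the extent that reads were split among them, which was not measured. Over whole libraries 13.53% to 16.52% of the reads matched more than 1 place.

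Of the other eEF1 genes, Eef1g, the eEF1B subunit that anchors the complex, stood at 81.2 ± 6.35 FPKM in NormMg-LFD and 104 ± 6.98 FPKM in NormMg-HFD mice (0.35 ± 0.11, adjusted p = 0.0171). This call was lost under median centring (0.25, adjusted p = 0.0568), under quantile normalization (0.19, adjusted p = 0.154) and without NormMg-LFD replicate 5. Eef1e1, also known as AIMP3, a part of the tRNA synthetase complex, rose from 8.45 ± 2.33 to 13.4 ± 0.803 FPKM (0.64 ± 0.16, adjusted p = 0.00363, held in 28 of 28 alternatives). In LowMg-HFD mice they stood at 93.0 ± 13.1 and 11.3 ± 1.91 FPKM and did not differ from NormMg-HFD by the test (adjusted p = 0.291 and 0.283). Eef1d, the eEF1Bδ subunit, was at 87.9 to 103 FPKM in the group means and passed in no contrast.

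**Figure D4:**
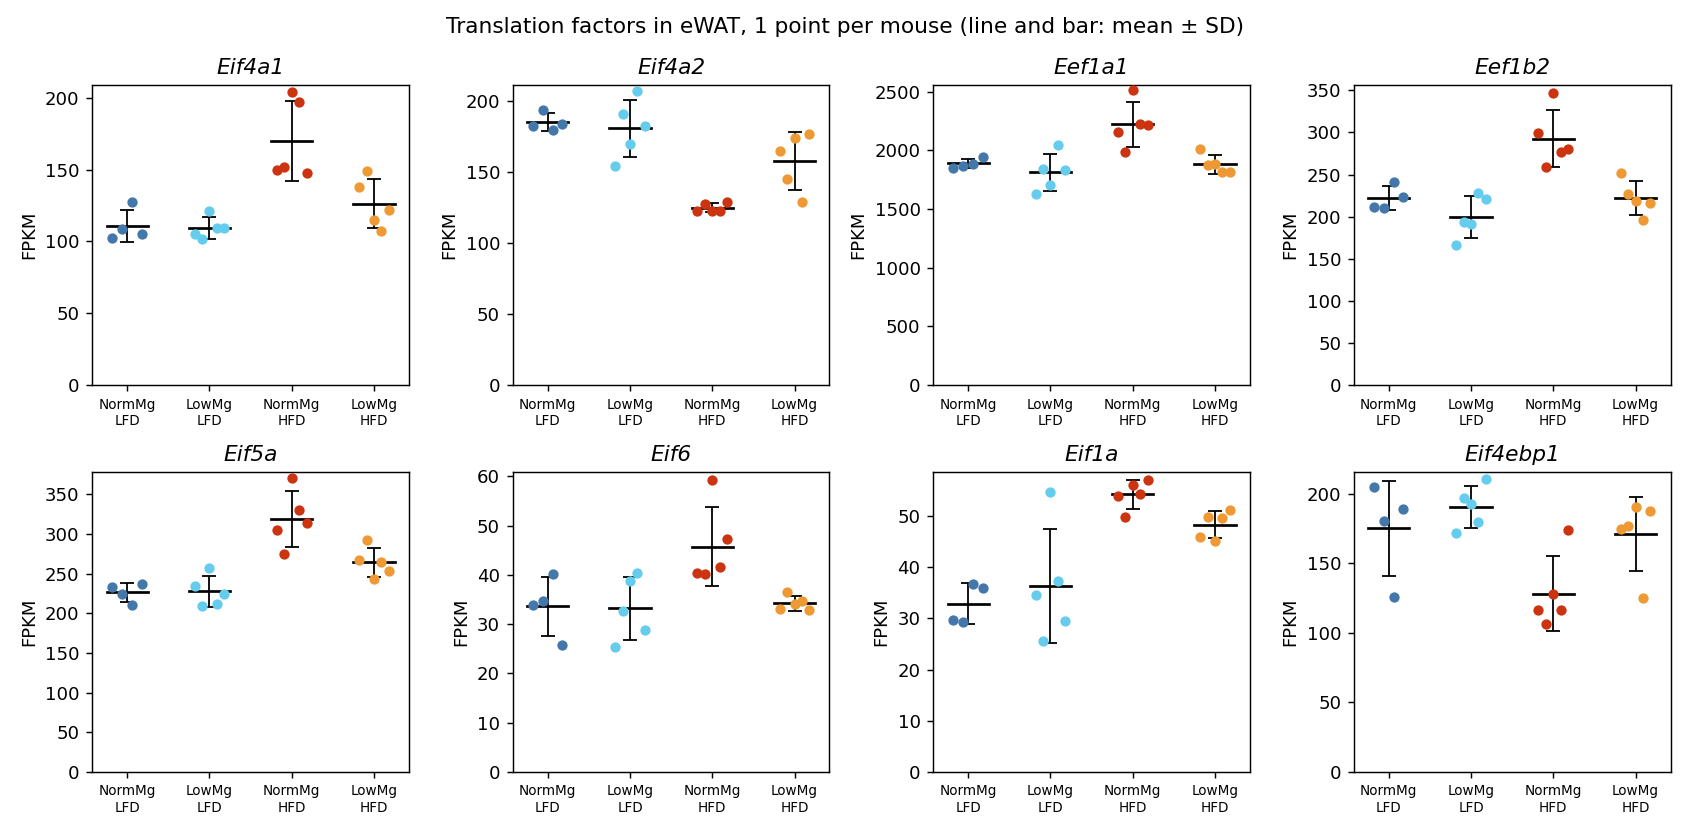
FPKM of 8 translation factors by diet group, 1 point per mouse, with the mean as a line and the SD as a bar (n = 4 for NormMg-LFD and 5 for the other groups). The NormMg-HFD mice are the highest group for Eif4a1, Eef1a1, Eef1b2, Eif5a, Eif6 and Eif1a and the lowest for Eif4a2 and Eif4ebp1.

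Among the factors of subunit joining and later steps, Eif5a and Eif6 rose with fat and fell with low Mg2+ on the HFD, while Eif5 and Eif5b did not pass. Eif5a, the hypusine-carrying factor (chr11:69916714-69921958), stood at 234, 224, 211 and 238 FPKM in NormMg-LFD and at 235, 209, 258, 212 and 225 FPKM in LowMg-LFD mice. On the HFD its levels were 305, 274, 370, 330 and 314 FPKM with normal and 268, 293, 244, 264 and 253 FPKM with low Mg2+, so that 1 LowMg-HFD mouse at 293 FPKM was above the lowest NormMg-HFD mouse. The rise with fat (0.49 ± 0.09, adjusted p = 0.000264) held in 28 of 28 alternatives. The fall with low Mg2+ was smaller (-0.27 ± 0.08, adjusted p = 0.0337), held in 16 of 28, and was lost under both scalings and without any 1 of 6 mice on the HFD, LowMg-HFD replicate 4 among them (adjusted p = 0.0512).

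Eif6, which keeps free large subunits from joining (chr2:155819832-155826925), stood at 33.8, 34.7, 40.2 and 25.7 FPKM in NormMg-LFD and 25.4, 32.6, 38.7, 40.5 and 28.8 FPKM in LowMg-LFD mice. It stood at 40.4, 40.2, 59.3, 41.6 and 47.3 FPKM in NormMg-HFD and at 33.1, 36.5, 34.1, 34.6 and 32.8 FPKM in LowMg-HFD mice, with no overlap between the HFD groups. Fat raised it by 0.44 ± 0.14 (adjusted p = 0.0214, held in 25 of 28 alternatives). The fall with low Mg2+ on the HFD (-0.39 ± 0.13, adjusted p = 0.0478) held in 9 of 28, although every alternative kept its sign, with log2 fold changes between -0.44 and -0.30.

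Among the factors of start codon selection and the eIF2 complex, calls were made for fat. Eif1a, which encodes eIF1A, stood at 29.7, 29.3, 36.7 and 35.95 FPKM in NormMg-LFD and 53.9, 49.9, 56.1, 54.3 and 57.1 FPKM in NormMg-HFD mice. This 1.64-fold rise was the largest of any member (0.71 ± 0.15, adjusted p = 0.000791, held in 28 of 28 alternatives). At low Mg2+ it stood at 34.5, 25.7, 54.6, 37.2 and 29.5 FPKM on the LFD and 45.9, 49.9, 45.1, 49.7 and 51.1 FPKM on the HFD. The LFD mouse at 54.6 FPKM was above all LowMg-HFD mice, and the difference still passed (0.45 ± 0.14, adjusted p = 0.0327, held in 17 of 28). The X-linked paralog Eif1ax, with nearly the same protein, stood at 41.8 ± 7.25 FPKM in NormMg-LFD and 47.2 ± 4.77 FPKM in NormMg-HFD mice and did not pass.

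Of the eIF2 subunits, Eif2s1, the α subunit that the stress kinases phosphorylate, rose with fat at normal Mg2+ from 16.2 ± 2.40 to 21.4 ± 2.05 FPKM (0.39 ± 0.10, adjusted p = 0.00591). Eif2s2, the β subunit, rose from 21.4 ± 0.763 to 27.4 ± 3.30 FPKM (0.33 ± 0.08, adjusted p = 0.00433). The γ subunit did not follow, with 0.03 ± 0.08 for Eif2s3x (95% CI -0.14 to 0.20) and 0.15 ± 0.11 for Eif2s3y (95% CI -0.08 to 0.38). Under quantile normalization neither Eif2s1 nor Eif2s2 passed (adjusted p = 0.0683 and 0.0532), and under median centring Eif2s1 did not (0.0671). The exchange factor eIF2B had 1 of 5 subunits lower with fat at normal Mg2+, where 12.8% of all genes were lower, and 0 higher. Eif2b3, the γ subunit, fell with fat from 15.7 ± 2.53 to 11.3 ± 0.904 FPKM (-0.43 ± 0.11, adjusted p = 0.00573, held in 28 of 28 alternatives). In LowMg-HFD mice it stood at 14.0 ± 1.55 FPKM, which did not pass against NormMg-HFD (0.28 ± 0.11, adjusted p = 0.0787).

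At the cap, Eif4e itself stood at 55.5 ± 11.4 FPKM in NormMg-LFD, 50.3 ± 8.74 in LowMg-LFD, 57.4 ± 2.56 in NormMg-HFD and 56.0 ± 11.3 in LowMg-HFD mice, and passed in no contrast. Eif4e2, which encodes the cap-binding repressor 4EHP, was at 31.8 ± 2.18 and 41.3 ± 2.21 FPKM at normal Mg2+ (0.37 ± 0.10, adjusted p = 0.00644) and at 29.7 ± 3.26 and 38.3 ± 5.20 FPKM at low Mg2+ (0.35 ± 0.09, adjusted p = 0.0145). Quantile normalization ended both calls (adjusted p = 0.07 and 0.101), and at low Mg2+ median centring (0.0959) and a fit of only the groups compared did so too. Eif4e3, a cap binder of a further class, fell from 22.6 ± 3.05 to 18.4 ± 1.58 FPKM (-0.28 ± 0.10, adjusted p = 0.0386) and from 24.3 ± 2.08 to 19.6 ± 1.80 FPKM (-0.30 ± 0.10, adjusted p = 0.0402). These calls held in 20 and in 18 of 28 alternatives, and each in 13 of the 19 fits that left out 1 mouse. Among the losses, leaving out NormMg-LFD replicate 3 ended the former call (adjusted p = 0.144) and LowMg-HFD replicate 4 the latter (0.0808). The scaffolds Eif4g1 to Eif4g3 and the helicase partners Eif4b and Eif4h passed in none of the 5 contrasts, although Eif4g1 was called higher with low Mg2+ on the HFD under quantile normalization.

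Eif4ebp1, the insulin-responsive inhibitor of eIF4E (chr8:27260329-27276674), stood at 205, 180, 126 and 189 FPKM in NormMg-LFD and at 172, 197, 193, 180 and 210 FPKM in LowMg-LFD mice. NormMg-HFD mice had 116, 106, 128, 116 and 174 FPKM and LowMg-HFD mice 174, 177, 191, 125 and 187 FPKM. All groups overlapped, with the lowest NormMg-LFD mouse at 126, the highest NormMg-HFD mouse at 174 and the lowest LowMg-HFD mouse at 125 FPKM. Fat lowered Eif4ebp1 at normal Mg2+ (-0.45 ± 0.15, adjusted p = 0.0284, held in 20 of 28 alternatives), and the call was lost without NormMg-LFD replicate 3 (adjusted p = 0.0702). Low Mg2+ on the HFD gave 0.42 ± 0.14 with an adjusted p of 0.0506, just short of the threshold. It passed without LowMg-HFD replicate 4 (0.53, adjusted p = 0.0149), and with all mice under quantile normalization (0.55, adjusted p = 0.00949) and with a replicate block (0.42, adjusted p = 0.0192), but not under median centring (0.48, adjusted p = 0.0539). Eif4ebp2 did not pass without scaling but was called lower with fat at normal Mg2+ under both scalings. It stood at 41.5 ± 3.35, 41.6 ± 3.82, 36.5 ± 2.95 and 37.8 ± 5.68 FPKM in NormMg-LFD, LowMg-LFD, NormMg-HFD and LowMg-HFD mice. Eif4enif1, the eIF4E transporter, did not pass.

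In eIF3, the scaffold of the small subunit, no call was made. None of its 13 tested subunits passed in any contrast, where 37.4% of all genes did for fat at normal Mg2+, 18.5% for low Mg2+ on the HFD and 15.9% for fat at low Mg2+, with a lowest adjusted p of 0.0551 (Eif3h, fat at normal Mg2+, 0.17 ± 0.07). Their log2 fold changes ran from -0.07 to 0.23 for fat at normal Mg2+ and from -0.19 to 0.00 for low Mg2+ on the HFD. Their spread within groups was low, with a median SD of 0.112 on the log2 scale, and the widest of their 95% intervals for low Mg2+ on the HFD, that of Eif3f, ran from -0.44 to 0.26. Mean levels of 12 subunits ran from 39.3 FPKM for Eif3d to 85.2 FPKM for Eif3k, and Eif3j2 was lower at 20.2 FPKM. Of the exonic bases of Eif3d, 43.3% also belong to another annotated gene.

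The translocase and its kinase passed in no contrast. Eef2 stood at 442 ± 25.6 FPKM in NormMg-LFD, 433 ± 31 in LowMg-LFD, 465 ± 25.3 in NormMg-HFD and 416 ± 20.8 in LowMg-HFD mice, with -0.16 ± 0.07 for low Mg2+ on the HFD (adjusted p = 0.117). Its kinase Eef2k, which stops translocation, stood at 19.4 ± 3.38, 17.6 ± 4.73, 15.7 ± 4.10 and 17.7 ± 3.01 FPKM. The methyltransferases Eef1akmt1 and Eef2kmt did not pass either, although Eef2kmt was called lower with fat at normal Mg2+ under both scalings.

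**Figure D5:**
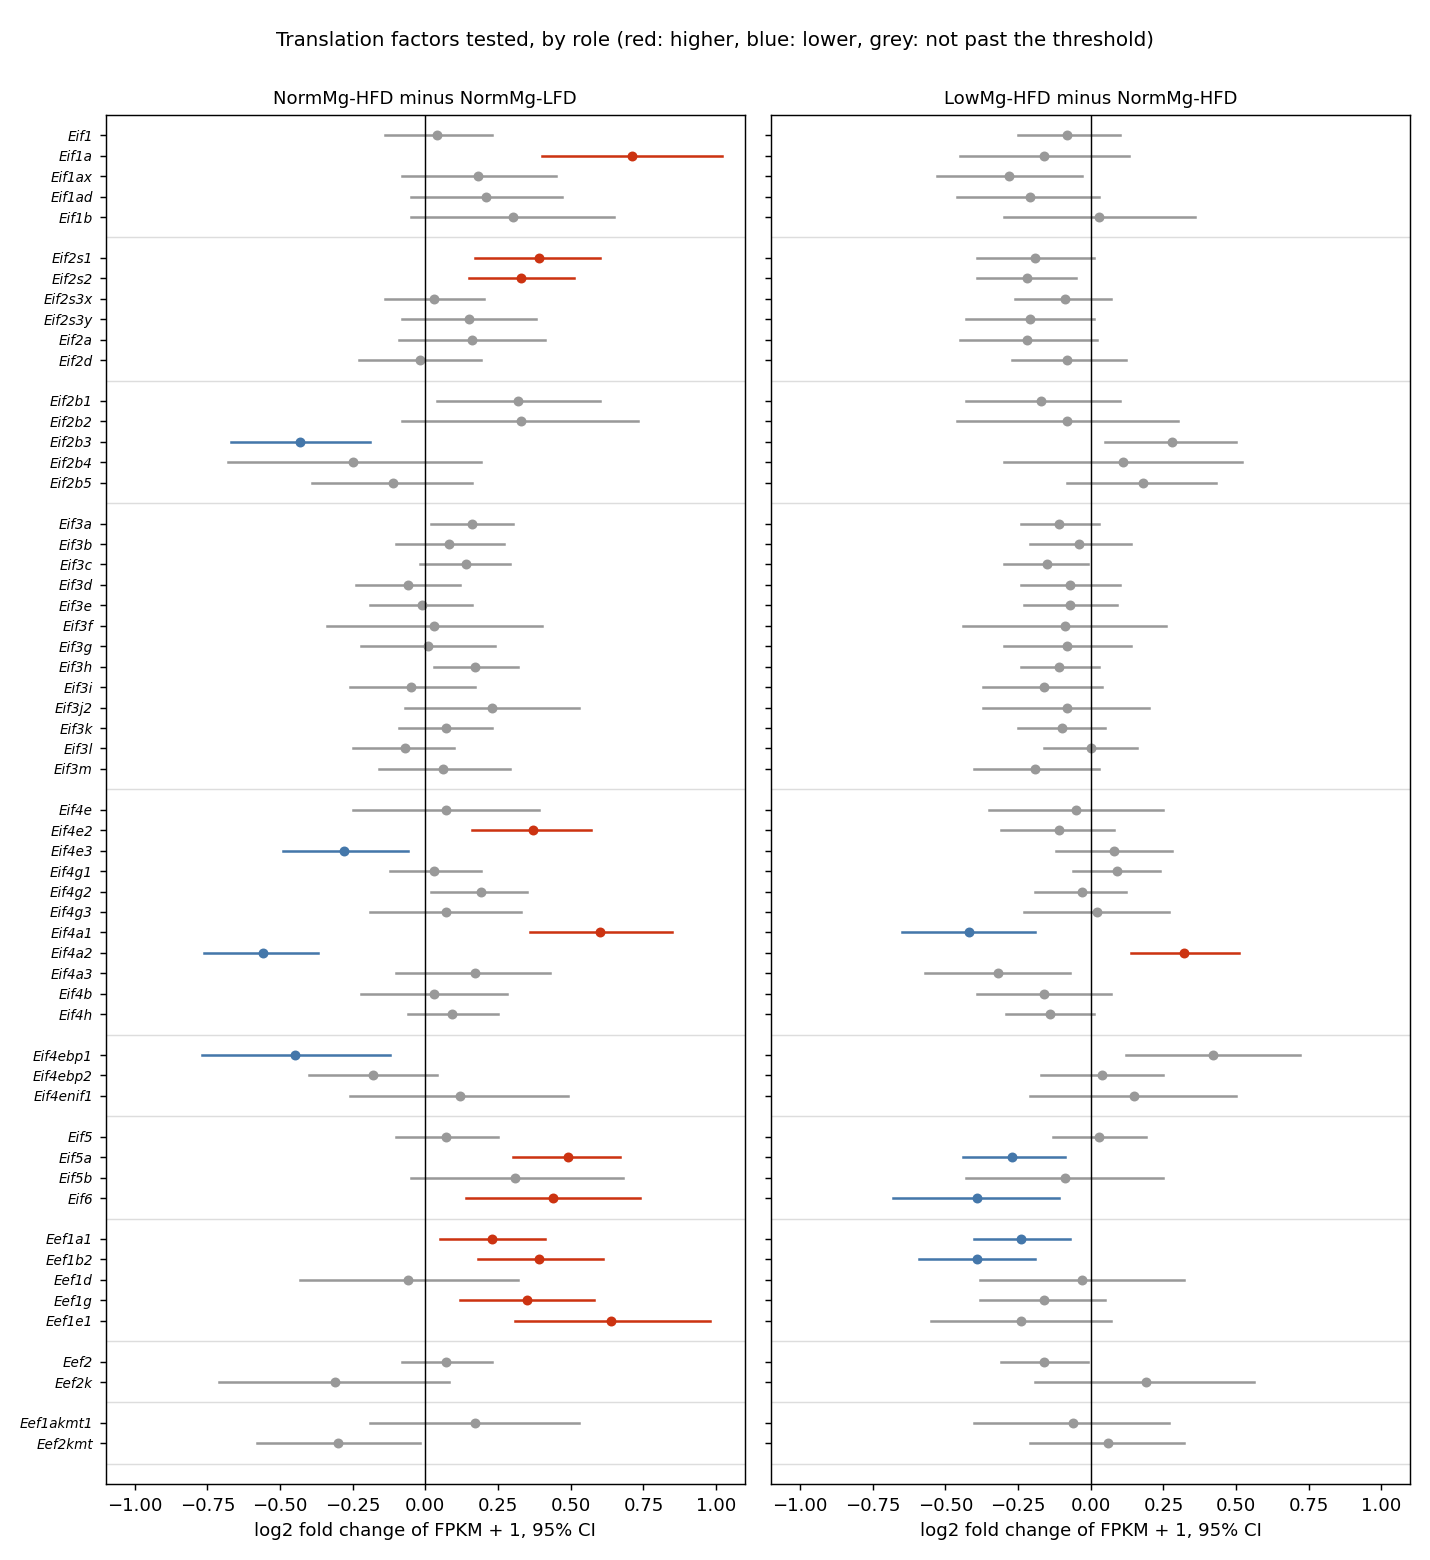
Log2 fold change of FPKM + 1 with its 95% confidence interval for each of the 56 translation factors tested, ordered by role, for fat at normal Mg2+ (left) and low Mg2+ on the HFD (right), which share the NormMg-HFD mice. Coloured intervals passed an adjusted p of 0.05: 11 higher and 4 lower on the left, 1 higher (Eif4a2) and 5 lower on the right, and none of the eIF3 subunits.

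Where the groups did not overlap at all, the count was 13 of 56 members for fat at normal Mg2+ (23.2%, background 32.1%) and 4 of 56 for low Mg2+ on the HFD (7.14%, background 12.8%). With low Mg2+ on the LFD (LowMg-LFD against NormMg-LFD) 0 members passed by limma, as did 0% of all genes. Unadjusted p was under 0.05 there for 1 member, Eif3k, and for 547 of 8336 genes, and the members' 95% intervals reached a median of 0.23 on the log2 scale to either side. With fat at low Mg2+ (LowMg-HFD against LowMg-LFD) 3 of 56 members passed, 5.36% against 15.9% of all genes. They were Eif1a and Eif4e2 (3.57% higher, background 12.4%) and Eif4e3 (1.79% lower, background 3.51%). This balance depended on the scaling, with 0 higher and 3 lower under median centring (Eif2b3, Eif4a2 and Eif4e3) and 0 higher and 2 lower under quantile normalization (Eif4a2 and Eif4e3), where 13.5% and 12.9% of all genes were called. The higher share of all calls went from 78.0% to 52.8% and 50.9%. Without LowMg-HFD replicate 4, 2 passed against a background of 17.7%, and without LowMg-LFD replicate 4, 3 passed against 15.6%. The count was 1 without LowMg-HFD replicate 1 or 2 or LowMg-LFD replicate 1 or 5, was 5 without LowMg-LFD replicate 3, and was 0 when only the groups compared were fitted. Eif4a1 and Eif4a2 had 0.20 ± 0.11 (adjusted p = 0.238) and -0.20 ± 0.09 (adjusted p = 0.137) in that comparison without scaling.

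Whether the response to Mg2+ differed between the fat levels was tested by the interaction. By limma 0 of 56 members passed, where 1.25% of all genes did. Unadjusted p was under 0.05 for 5 members (8.93%), against 20.4% of all genes. The lowest adjusted p values were those of Eif4a2 (0.36 ± 0.13, adjusted p = 0.121) and Eif4a1 (-0.41 ± 0.16, adjusted p = 0.159). A response of the members to Mg2+ that is particular to the HFD was therefore not shown in this fit. Calls were nonetheless made on the HFD and none on the LFD. Under quantile normalization 1 member passed for the interaction.

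Macrophage markers moved with these results. Of 15 tested, 13 were higher and 1 lower with fat at normal Mg2+ (24.6% and 12.8% of all genes), and 13 were lower with low Mg2+ on the HFD (12.9% of all genes), the directions taken by Eif4a1, Eef1b2, Eif5a and Eif6. Adipocyte markers took the direction of Eif4a2, with 7 of 12 lower and 2 higher with fat and 6 higher with low Mg2+ on the HFD (5.58% of all genes). Of 9 endothelial markers 2 were lower with fat and 2 higher with low Mg2+ on the HFD. The part of these cell types in the levels of the factors was not tested.

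Genes around the factors were read from 3 lists, of eIF2α kinases and effectors, of mTORC1 and kinases upstream of the cap, and of poly(A) binding, release and recycling factors. With fat at normal Mg2+, 4 of 14 tested genes of the eIF2α list were higher and 0 lower, where 24.6% of all genes were higher and 12.8% lower, and 0 passed with low Mg2+ on the HFD. Ddit3, the stress transcription factor CHOP, rose at both Mg2+ levels (0.74 ± 0.14, adjusted p = 0.00032 at normal, 0.50 ± 0.13, adjusted p = 0.0137 at low Mg2+). Atf4, the activator translated when eIF2α is phosphorylated, rose by 0.47 ± 0.14 at normal Mg2+ (adjusted p = 0.0143), as did the adaptor Nck1 (0.51 ± 0.12) and the phosphatase subunit Ppp1cb (0.36 ± 0.10).

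In the mTORC1 list 6 of 17 tested genes were higher and 1 lower with fat at normal Mg2+, against the same shares of all genes. With low Mg2+ on the HFD 1 was higher and 4 lower, where 5.58% of all genes were higher and 12.9% lower. Mknk2, a kinase of eIF4E, fell with fat from a mean of 251 to 136 FPKM (-0.88 ± 0.15, adjusted p = 0.000145) and was the gene that rose with low Mg2+ on the HFD, to 191 FPKM (0.46 ± 0.14, adjusted p = 0.0303). The other eIF4E kinase, Mknk1, rose with fat to 30.2 FPKM (0.57 ± 0.16, adjusted p = 0.00926), as did Deptor, an mTOR inhibitor (0.77 ± 0.17, adjusted p = 0.00132). With fat at low Mg2+, Deptor was higher (0.48 ± 0.16, adjusted p = 0.046) and Mknk2 lower (-0.46 ± 0.14, adjusted p = 0.035). In that contrast 12.4% of all genes were higher and 3.51% lower. Of the Ragulator subunits that tether mTORC1 to lysosomes, Lamtor1, Lamtor3, Lamtor4 and Lamtor5 rose with fat by 0.32, 0.50, 0.29 and 0.41. The 4 genes lower with low Mg2+ on the HFD were Lamtor3 (-0.40 ± 0.11), Lamtor1 (-0.28 ± 0.08), the mTORC1 substrate Akt1s1 (-0.35 ± 0.10) and the ribosomal protein gene Rps6 (-0.38 ± 0.12), with adjusted p from 0.0181 to 0.0393. Leaving out 1 mouse changed the number of calls over the 3 lists for low Mg2+ on the HFD, 5 in all, to between 0 (without NormMg-HFD replicate 3) and 8 (without LowMg-HFD replicate 2).

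In the list of poly(A) binding and release factors 5 of 17 tested genes were higher with fat at normal Mg2+, where 24.6% of all genes were, and 0 lower. These were Abce1, which recycles ribosomes (0.48 ± 0.08, adjusted p = 0.000138), the rescue factor Pelo (0.45 ± 0.13), the release factors Etf1 (0.32 ± 0.09) and Gspt1 (0.26 ± 0.09), and the poly(A)-binding protein gene Pabpc1 (0.33 ± 0.13, adjusted p = 0.0495). With low Mg2+ on the HFD 0 of these 17 passed. With fat at low Mg2+, Pabpc1 was higher (0.39 ± 0.12, adjusted p = 0.0364), the only call of the list there, where 12.4% of all genes were higher.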

How the data were processed

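RNA of eWAT from 19 mice was sequenced by the authors as 50-base single reads, mapped with HISAT and Bowtie2 to GRCm38/mm10 and summarised with RSEM 1.2.31 as FPKM, which were deposited in 1 table. Read counts and the percent of reads mapped per mouse were deposited by the authors beside it. The strand setting is not given in the sources used here. FPKM hold no counts per gene, so no count test was run, and the precision of a value is that of its replicates. Groups follow the labels. The study left out, for pancreatic tissue, a LowMg-HFD mouse that is not named. Pancreas genes summed to at most 51.6 FPKM in the LowMg-HFD mice here and were high in NormMg-LFD replicate 3 (1976 FPKM), so the mouse could not be matched and all 19 mice were used. LowMg-HFD replicate 4 was left out in an alternative for its sperm genes. A gene with a non-numeric entry was dropped, which left 24237. Genes were tested with limma 3.58.1 (R 4.3.3) on log2(FPKM + 1) with an intensity trend, two-sided, adjusted by Benjamini-Hochberg. Named are the members past the threshold, the leading member of each role, 15 members set by role, members under the filter, and up to 5 genes per list and contrast by adjusted p; other genes named, Mknk1 and Lamtor4 among them, were chosen after their values were seen. Members and lists were chosen with earlier results of these data known. Positions are from GENCODE M21, motifs from RefSeq sequence. The fit was tested on simulated data. Figures were drawn with matplotlib 3.10.9. The labels pair no mice beyond their replicate numbers, and the main fit used no pairing. Of 27 same-numbered pairs, 5 had deviations correlated over 0.1. The highest was 0.339, for replicate 4 of NormMg-LFD and LowMg-LFD, so this count does not exclude pairing.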

Additional observations from a re-analysis of the deposited data

Results flagged for a closer look

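In 64 groups of values, those of the 15 members past a threshold and of the median over the 56 members tested, each in the 4 diet groups, 5 values lay apart from the rest of their group by Dixon's criterion, which flags about 1 in 20 groups by chance. Eif4ebp1 was at 125 FPKM in LowMg-HFD replicate 4, where the other 4 mice were at 174 to 191 FPKM. The median log2(FPKM + 1) over the 56 members tested was 5.568 in that mouse, with the others at 5.342 to 5.382, and 5.587 in NormMg-LFD replicate 4, with the others at 5.327 to 5.36. Eif2s2 was at 20.3 FPKM in NormMg-LFD replicate 2, against 21.7 to 21.9 in the other 3 mice, and Eif4e2 at 35.1 FPKM in NormMg-LFD replicate 4, against 30.5 to 31.1.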

How the results depend on the processing

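Among the alternative values of the counts and medians over 5 contrasts, 383 stayed within the limits set (1.5 times for a count, 1 SD between mice for a median) and 34 did not. This tally includes low Mg2+ on the LFD and the interaction, where the main counts were 0 and could only rise. For single calls of members, 577 alternative values were the same, 117 were weaker and 6 stronger. Members past the threshold kept their direction in that contrast under every alternative; those not past it were not followed. The members' median changed sign within its limit for fat at normal Mg2+ (0.09 to -0.02 with median centring) and for low Mg2+ on the LFD (-0.03 to 0.04 with median centring and 0.01 with quantile normalization). For members called with low Mg2+ on the HFD (6), median centring gave 3 and no filter 3; for fat at low Mg2+ (3), 18 mice without LowMg-HFD replicate 4 with a filter of log2(FPKM + 1) over 3 gave 1, no filter 1 and a fit of only the groups compared 0; for the interaction, quantile normalization gave 1. The median over the members moved to -0.07 (median centring) and -0.06 (quantile) for fat at low Mg2+ and to -0.04 (quantile) for fat at normal Mg2+. Pathway genes called moved from 5 to 3 with median centring and 3 without a filter for low Mg2+ on the HFD, and from 4 to 1 without a filter and 1 with only the groups compared for fat at low Mg2+. Leaving out each mouse gave 2 to 7 members for low Mg2+ on the HFD, 10 to 17 for fat at normal Mg2+, 1 to 5 for fat at low Mg2+, 0 for low Mg2+ on the LFD and for the interaction, and 0 to 8, 12 to 17 and 1 to 8 pathway genes for the 3 contrasts with calls. The mice share only a number, and 3 of 19 correlated best with a mouse of their own number; with a replicate block the members called were 6, 14 and 3 for low Mg2+ on the HFD, fat at normal and fat at low Mg2+, and 0 in the other 2 contrasts. The cause of these moves was not tested. FPKM without counts leave the counting error of low members unknown.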

Other observations

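Some mice stood at the edge of their group for many factors at once. NormMg-LFD replicate 4 had the highest level of its group for 35 of the 56 members tested and LowMg-HFD replicate 4 for 28, while LowMg-LFD replicate 1 had it for 1 member and NormMg-HFD replicate 3 for 26. In LowMg-HFD replicate 4, the library with the highest level of sperm genes, Eef1d was at 178 FPKM, whereas the other LowMg-HFD mice were at 79.9 to 86.1 FPKM, and Eif1b was at 52.1 FPKM, whereas the others were at 24.4 to 37.6 FPKM. These genes were chosen after their values were seen.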
